A study of Salmo salar with 58 samples.

Results

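The genes mmp9 and mmp13 encode matrix metalloproteinases, and their transcripts were followed in the distal intestine and liver of Atlantic salmon (Salmo salar) 12 h after acute exposure to a mould toxin. They were found by name, as the genes whose NCBI symbol for Salmo salar is mmp9 (GeneID 100195428) or mmp13 (GeneID 100195495). The choice of these genes was made with earlier results of these data known. Each symbol had 1 row in the deposited file, so they are 2 of the 26239 genes measured. Salmon carry many near-identical gene copies. A copy known only by a LOC number was not found by this search, and reads shared between copies make the values of both uncertain.

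Matrix metalloproteinases are zinc enzymes that cut the proteins of the extracellular matrix. Most are secreted as inactive proenzymes, are switched on by other proteases and are held in check by the tissue inhibitors of metalloproteinases (TIMPs). MMP9, or gelatinase B, degrades denatured collagen and basement membrane collagen, and in mammals neutrophils store it in granules. MMP13 is a collagenase that opens fibrillar collagen, and in zebrafish both genes are known as transcripts of myeloid cells and of wounded tissue.

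The study exposed salmon in vivo to enniatin B or beauvericin, a pair of cyclic hexadepsipeptides made by Fusarium moulds that differ in the side chains of their N-methylated amino acids, valine in enniatin B and phenylalanine in beauvericin. Each tissue had 6 control samples, 6 of low enniatin B (ENNB_Lo), 6 of high enniatin B (ENNB_Hi), 5 of low beauvericin (BEA_Lo) and 6 of high beauvericin (BEA_Hi), 58 libraries in all. Amounts are labelled only as low or high, so a shared dose name does not mean a shared dose. Nothing in the labels ties each number to a fish of its own, and p-values therefore measure the spread between these samples, which may be technical.

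The file gives normalized counts, that is, reads per gene divided by a factor of each library's own, with both tissues normalized together. Most liver libraries had a lower factor than any intestine library, so differences between the tissues rest on this scaling. Reads assigned to genes ran from 23283889 to 40626189 per intestine library and from 30743665 to 61678301 per liver library. Behind the values stood 155 to 1562 reads of mmp9 and 328 to 6500 of mmp13 in each intestine library. Liver libraries held 27 to 303 reads of mmp9 and 14 to 311 of mmp13, so counting error weighs more there. Levels were not compared between the genes as such, because no transcript lengths were used here.

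Some intestine libraries stood apart in makeup. Of 8 enterocyte markers, genes of the absorbing cell, 7 lay far lower in controls 5 and 6 than in any other control, vil1 for example at 1172 or less against 37737 or more normalized counts. The endocytic receptor gene cubn did not, at 51.9 and 67.5 against 55.5 to 94.98. In these libraries the cholesterol transporter npc1l1 had normalized counts of 1.40 and 1.80 against 3719 or more in each other intestine library. Replicate 3 of low enniatin B had 9.71 of the peptide transporter slc15a1 and 47461 of cubn, whose highest value elsewhere in intestine was 10329. Their part in the results was not tested, and values without controls 5 and 6 are given beside the intestinal differences of mmp9, mmp13 and the genes named with them. Markers of the labelled tissue set the organs apart, as haptoglobin (hp), a liver plasma protein, had 22229 or more in each liver library and 30.6 or less in each intestine library.

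In the intestine both protease transcripts were abundant, and they varied widely within every group, the controls included. Over the 29 intestine libraries mmp9 ran from 139.5 to 1018 with a median of 375 normalized counts, 7.30 times from lowest to highest. There mmp13 ran from 295 to 4210 with a median of 1331, 14.3 times from lowest to highest.

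In intestine controls mmp9 had normalized counts of 139.5 (lowest), 255 (median) and 812.5 (highest, replicate 3). The same controls had mmp13 at 295, 737 and 2474, again with replicate 3 highest. Controls 5 and 6, the libraries low in most enterocyte transcripts, held the 2 lowest mmp9 values of the group, 147.9 and 139.5, and had mmp13 at 624 and 295. The control group alone thus covered much of the range of all exposed groups.

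After low enniatin B mmp9 had a lowest value of 196, a median of 360.1 and a highest of 842. For mmp13 these were 673, 1109 and 4210. Replicate 3 held the highest value of both genes and stood well above the other 5 libraries, which overlapped the controls. After high enniatin B mmp9 had 145.5, 455 and 933, and mmp13 638, 1733 and 3638. Replicate 1 was highest and replicate 2 lowest for both genes, and both groups overlapped the controls.

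After low beauvericin the 5 libraries had mmp9 at 1018, 375, 619, 358 and 491 normalized counts in replicates 1 to 5. Their mmp13 values were 2260, 1572, 1861, 1181 and 1952. All 5 lay above the control median for both genes, while control 3 lay above 4 of the 5 for mmp9 and above all 5 for mmp13. After high beauvericin mmp9 had 143.7, 279 and 433 as lowest, median and highest, and mmp13 had 525, 1205 and 1395. These values lay within the range of the controls, with replicate 1 lowest for both genes.

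In the liver both transcripts were lower and spread at least as far. Over the 29 liver libraries mmp9 ran from 35.9 to 503 with a median of 130.6, and mmp13 from 18.6 to 517 with a median of 161. Liver control 2 had the lowest value of both genes in that tissue, and replicate 6 of high enniatin B the highest of both.

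Liver controls had mmp9 at 35.9 (lowest), 133.9 (median) and 219 (highest). Their mmp13 values were 18.6, 198 and 273, and 5 of the 6 lay between 88.8 and 273. Low enniatin B gave mmp9 at 48.8, 147 and 221 and mmp13 at 49.9, 184 and 310. Both groups lay almost wholly inside the range of the controls.

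High enniatin B gave the widest liver groups, with mmp9 at 49.8, 146 and 503 and mmp13 at 34.4, 184 and 517. Low beauvericin had mmp9 at 230.2, 153, 134.7, 77.3 and 155 in replicates 1 to 5, and mmp13 at 179, 161, 239.7, 110.5 and 252.5. High beauvericin had mmp9 at 53.7, 112 and 168 and mmp13 at 45.01, 91.1 and 145. In that last group all 6 mmp13 values lay under the control median, although control 2 was lower than each of them.

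**Figure D1:**
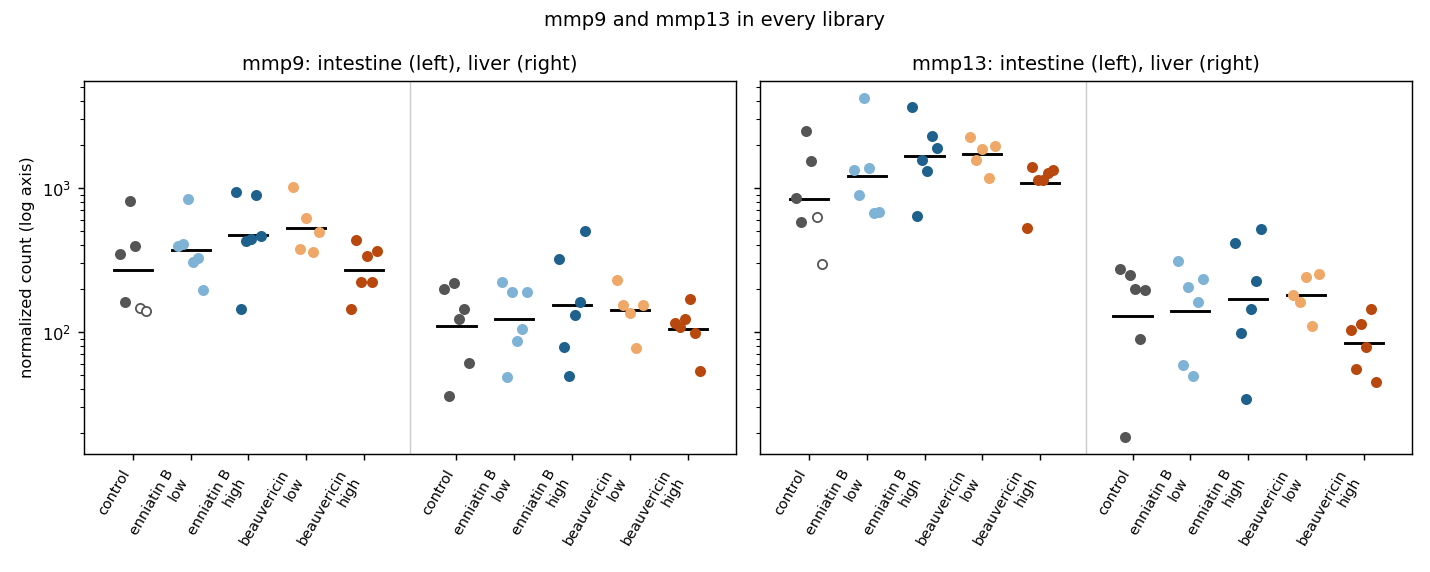
Normalized counts (log axis) of mmp9 (left panel) and mmp13 (right panel) in every library by tissue and treatment; each point is 1 library, each bar the mean of the group on the log scale, and open circles are intestine controls 5 and 6. Intestine mmp13 runs from 295 to 4210 and liver mmp13 from 18.6 to 517, and within each tissue the exposed groups overlap the controls.

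The spread within groups was large for genes of this level. On the log2(value + 2) scale the within-group SD of mmp9 was 0.80 in intestine and 0.88 in liver, and that of mmp13 was 0.82 and 1.10. The median gene had an SD of 0.36 in each tissue. Of the 1000 genes nearest to it in level, mmp9 varied more than 94.1% in intestine and 96.1% in liver. For mmp13 these shares were 90.0% and 97.5%. No test was made of these shares, which describe the libraries.

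The first question was whether either toxin changed the proteases against control. Tests used limma, a linear model of log2(value + 2) with the spread shared across genes, and p-values were adjusted over all genes of the tissue by the method of Benjamini and Hochberg with a threshold of 0.05. Each exposed group was set against the same 6 controls, so these differences are not independent of each other.

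In intestine neither gene passed after any exposure, and neither did almost any other gene. After low enniatin B mmp9 differed from control by 0.47 ± 0.44 (log2 ± SE, limma adjusted p = 0.60) and mmp13 by 0.53 ± 0.46 (limma adjusted p = 0.56). The share of all 25601 genes that passed there was 0%. In 5 of the 6 libraries mmp9 lay above the control median, and in 4 of 6 mmp13 did.

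After high enniatin B mmp9 differed by 0.80 ± 0.44 (95% interval -0.11 to 1.71, limma adjusted p = 0.34) and lay above the control median in 5 of 6 libraries. There mmp13 differed by 0.99 ± 0.46 (interval 0.05 to 1.92, limma unadjusted p = 0.0396, adjusted p = 0.26), also in 5 of 6. The share of all genes that passed was again 0%.

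The largest intestinal differences came after low beauvericin. There mmp9 differed by 0.97 ± 0.47 (interval 0.02 to 1.93, limma unadjusted p = 0.046, adjusted p = 0.26), a fold of 1.96, and lay above the control median in 5 of 5 libraries. In the same group mmp13 differed by 1.04 ± 0.48 (interval 0.06 to 2.02, limma unadjusted p = 0.0388, adjusted p = 0.25), a fold of 2.05, also in 5 of 5. Neither passed, in a comparison in which 0.0156% of genes did.

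After high beauvericin mmp9 differed by 0.002 ± 0.44 (limma adjusted p = 1.0) and mmp13 by 0.37 ± 0.46 (limma adjusted p = 0.67), where 0.00391% of genes passed. The count tests edgeR and DESeq2, run on reads recovered from the values, called more genes, mostly lower than control, but neither called mmp9 or mmp13 in any of these 4 comparisons. In the order low and high enniatin B, low and high beauvericin, edgeR called 2.46%, 2.22%, 1.45% and 2.12% of genes and DESeq2 called 6.15%, 5.50%, 6.27% and 5.09%.

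All of these differences were lower with controls 5 and 6 left out. Without them mmp9 differed from the remaining 4 controls by 0.02 after low enniatin B, 0.36 after high enniatin B, 0.53 after low beauvericin and -0.45 after high beauvericin. The corresponding mmp13 differences were 0.05, 0.50, 0.56 and -0.11, and none passed. Leaving out replicate 3 of low enniatin B in addition gave a low enniatin B difference of -0.22 for mmp9 and -0.31 for mmp13.

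In liver each difference from control was about as large as its standard error or smaller. After high enniatin B mmp9 differed by 0.48 ± 0.49 and mmp13 by 0.39 ± 0.62 (limma adjusted p = 1.0 for each). After low beauvericin they differed by 0.36 ± 0.51 and 0.48 ± 0.65 (limma adjusted p = 0.88 for each). The shares of all 25157 genes that passed in these 2 comparisons were 0% and 0.127%.

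After low enniatin B the liver differences were 0.17 ± 0.49 for mmp9 and 0.10 ± 0.62 for mmp13 (limma adjusted p = 1.0 for each), where 0% of genes passed. After high beauvericin they were -0.06 ± 0.49 for mmp9 (limma adjusted p = 0.98) and -0.62 ± 0.62 for mmp13 (interval -1.88 to 0.65, limma adjusted p = 0.76). None of the 6 high beauvericin libraries reached the control median of mmp13, and 0% of all genes passed. At an unadjusted p under 0.05, as by edgeR and DESeq2, 0 of the 2 genes stood out in any liver comparison with control. Among all genes 3.64% and 2.77% were at such a p after low and high enniatin B. After low and high beauvericin 8.27% and 9.44% were. In the same order edgeR called 0, 0, 21 and 0 genes, so 0 of 2 does not set the proteases apart.

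One library bears on the liver directions. Without liver control 2, which had mmp13 at 18.6, the mmp13 difference was -0.43 after low enniatin B, -0.15 after high enniatin B and -0.06 after low beauvericin. The mmp9 difference after low enniatin B was then -0.14. Over the 4 exposures the outermost ends of the liver intervals were -1.05 and 1.48 for mmp9 and -1.88 and 1.80 for mmp13. Each interval held 0 and belongs to its own comparison, in which changes inside it were not excluded.

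**Figure D2:**
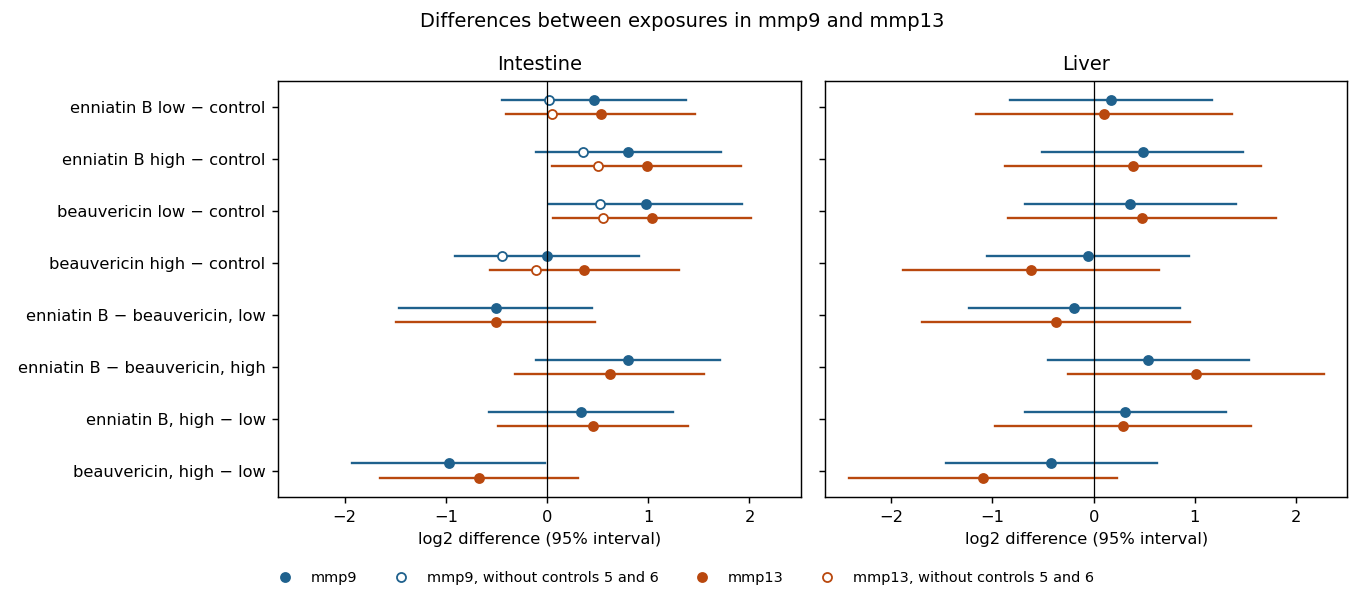
Differences in log2(value + 2) between groups with 95% intervals from limma, for mmp9 (blue) and mmp13 (orange) in intestine (left) and liver (right); open circles leave out intestine controls 5 and 6. In intestine the intervals of mmp13 after high enniatin B (0.05 to 1.92) and of mmp9 (0.02 to 1.93) and mmp13 (0.06 to 2.02) after low beauvericin lie above 0, that of mmp9 for high minus low beauvericin (-1.93 to -0.02) lies below it, and no difference passed after adjustment over all genes.

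The next question was whether the toxins, or the low and high amounts of each, differed. In intestine at the low dose name, enniatin B minus beauvericin was -0.51 ± 0.47 for mmp9 (interval -1.46 to 0.45) and -0.51 ± 0.48 for mmp13 (interval -1.49 to 0.47; limma adjusted p = 1.0 for each), where 0% of genes passed. At the high dose name the difference was 0.80 ± 0.44 for mmp9 (interval -0.11 to 1.71) and 0.62 ± 0.46 for mmp13 (interval -0.32 to 1.55; limma adjusted p = 1.0 for each), where 0.00391% of genes passed. Enniatin B thus lay below beauvericin at the low name and above it at the high name for both genes, without a called difference.

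In liver the toxin difference at the low dose name was -0.19 ± 0.51 for mmp9 (interval -1.23 to 0.85) and -0.37 ± 0.65 for mmp13 (interval -1.70 to 0.95; limma adjusted p = 1.0 for each). At the high dose name it was 0.54 ± 0.49 for mmp9 (interval -0.46 to 1.54, limma adjusted p = 0.72) and 1.01 ± 0.62 for mmp13 (interval -0.26 to 2.27, limma adjusted p = 0.58). There 5 of 6 enniatin B libraries lay above the beauvericin median of mmp13. In both liver comparisons 0% of genes passed.

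High minus low beauvericin in intestine was -0.97 ± 0.47 for mmp9 (interval -1.93 to -0.02, limma unadjusted p = 0.0463, adjusted p = 1.0) and -0.67 ± 0.48 for mmp13 (interval -1.65 to 0.31, limma adjusted p = 1.0). For both genes 0 of the 6 high libraries reached the low median. In liver the same difference was -0.42 ± 0.51 for mmp9 and -1.10 ± 0.65 for mmp13 (limma adjusted p = 1.0 for each), and for mmp13 again 0 of 6 reached the low median. High minus low enniatin B was 0.34 ± 0.44 and 0.45 ± 0.46 in intestine and 0.31 ± 0.49 and 0.29 ± 0.62 in liver for mmp9 and mmp13 (limma adjusted p = 1.0 for each). In all 4 dose comparisons 0% of genes passed. No comparison of toxins or doses was called for either gene by edgeR or DESeq2.

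The tissues differed in both proteases. Each was lower in liver than in intestine in all 5 treatments, with both tissues normalized together. For mmp13 the liver minus intestine difference was -2.68 ± 0.55 in controls (limma adjusted p = 2.72e-05), a level 6.40 times lower. It was -3.11, -3.27, -3.24 and -3.66 after low and high enniatin B and low and high beauvericin (limma adjusted p from 6.05e-08 to 5.17e-06). Every liver library lay below every intestine library of the same treatment.

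For mmp9 the difference was -1.27 ± 0.47 in controls (limma adjusted p = 0.0154), a level 2.42 times lower. It was -1.57, -1.59, -1.89 and -1.33 after the same 4 exposures (limma adjusted p from 0.00124 to 0.0108). The tissues overlapped for mmp9 in 4 of the 5 treatments, and the exception was low beauvericin. In each comparison both genes passed, against 68.6% of 26239 genes in controls, 70.2% after low enniatin B, 69.9% after high enniatin B, 68.5% after low beauvericin and 71.7% after high beauvericin. Passing was therefore the usual outcome between these organs.

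The control difference of mmp9 was the least secure. It did not pass when only the 2 control groups entered the fit (limma adjusted p = 0.0544), without liver control 2 (-0.96, limma adjusted p = 0.0717) or without intestine control 3 (-0.96, limma adjusted p = 0.0733). Without intestine controls 5 and 6 it was -1.72, and that of mmp13 was -3.16. The exposure effects did not differ between the tissues by limma, edgeR or DESeq2 for either gene. The difference nearest to passing was that of mmp13 after high beauvericin, at -0.99 ± 0.78 (limma adjusted p = 0.61), where 0.00381% of genes passed. For the other exposures these shares were 0%, 0% and 0.0267%. In the order low and high enniatin B, low and high beauvericin, edgeR called 1.02%, 1.16%, 1.14% and 1.54% of genes and DESeq2 called 2.02%, 2.13%, 3.03% and 2.86% for such a difference.

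By geometric mean, all 5 intestine groups ranked above all 5 liver groups for both genes. For mmp9 the order was low beauvericin (529), high enniatin B (470.3), low enniatin B (372), high beauvericin (269.0) and control (268.7) in intestine. In liver it was high enniatin B (154), low beauvericin (142), low enniatin B (124), control (109.9) and high beauvericin (106). No step between neighbours in this order exceeded the SD within groups, and all neighbours overlapped.

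For mmp13 the intestine order was low beauvericin (1725), high enniatin B (1662), low enniatin B (1213), high beauvericin (1082) and control (839). In liver it was low beauvericin (181), high enniatin B (170.2), low enniatin B (139.2), control (129.4) and high beauvericin (83.6). The step from intestine control to liver low beauvericin, 2.20 on the log2 scale, was the only one between neighbours that exceeded their SD and left no overlap.

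Because the liver deficit was larger for mmp13 than for mmp9, the ratio of the 2 transcripts was also computed, a measure chosen after the values had been seen. The length of each transcript cancels when the ratio is compared between tissues. In the 29 intestine libraries mmp13 was 2.06 to 5.73 times mmp9 in normalized counts, with a median of 3.63. In the 29 liver libraries it was 0.468 to 3.21 times, with a median of 1.13, and it exceeded 1 in 19 of them. The lowest intestine ratio was thus above the liver median.

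The log2 ratio was higher in intestine by 1.40 ± 0.41 in controls (two-sided exact permutation p = 0.0087, adjusted p = 0.023). It was higher by 1.54 after low and 1.68 after high enniatin B (exact permutation p = 0.0022 for each, adjusted p = 0.0094, n = 6 against 6). After low beauvericin it was higher by 1.35 (exact permutation p = 0.0079, adjusted p = 0.023, n = 5 against 5) and after high beauvericin by 2.33 (exact permutation p = 0.0022, adjusted p = 0.0094). All but the control p are the smallest that these group sizes allow, and adjustment was over 13 tests of the ratio. These tests took the 2 tissues as independent. Going by the data, same-numbered samples pair between tissues in high enniatin B, low beauvericin and high beauvericin. In low enniatin B 6 of 6 and in controls 5 of 6 samples also correlated best with their own number, so pairing may hold there too. No paired test of the ratio was made. Without intestine controls 5 and 6 the control difference was 1.44 (exact permutation p = 0.029, adjusted p = 0.074). Within a tissue no exposure passed, and the ratio in liver after high beauvericin, with 1 of 6 libraries above 1, differed from control by -0.56 (exact permutation p = 0.25, adjusted p = 0.46).

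**Figure D3:**
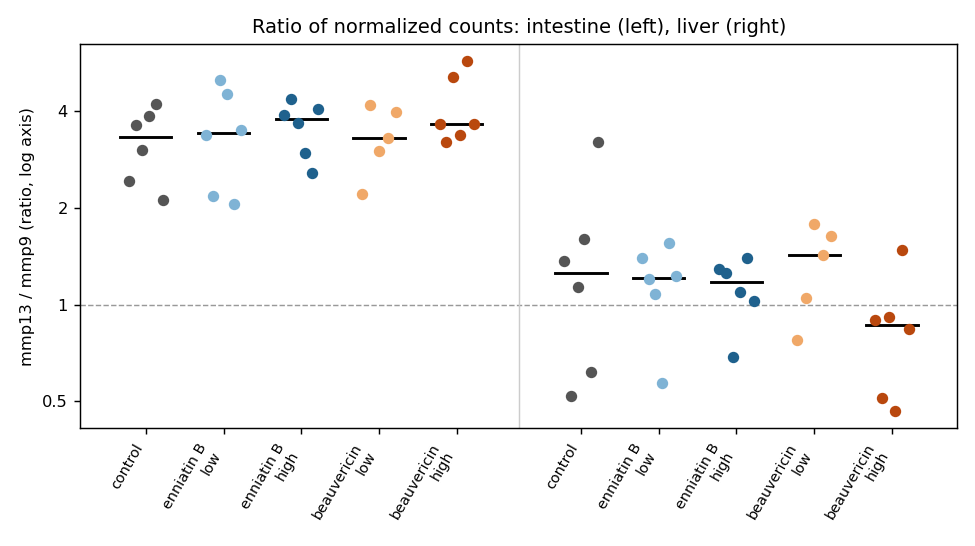
Ratio of mmp13 to mmp9 normalized counts (log axis) in each library by tissue and treatment; points are libraries, bars the group medians, and the dashed line marks equal counts. Intestine libraries lie between 2.06 and 5.73 and liver libraries between 0.468 and 3.21.

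The 2 transcripts were high and low in the same libraries. With group means removed, Pearson's r between mmp9 and mmp13 was 0.883 over the 29 intestine libraries (Spearman's rho 0.851, permutation p = 1e-05 for each, the smallest these permutations can give, adjusted p = 4e-05). In liver r was 0.831 (rho 0.780, permutation p = 2e-05 and 7e-05, adjusted p = 4e-05). Without the 2 libraries farthest from the median r was 0.838 in intestine and 0.755 in liver (permutation p = 1e-05 and 0.00024). Adjustment was over the 4 relations computed.

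Within single groups r lay between 0.817 and 0.957 in the 5 intestine groups and between 0.474 and 0.974 in the 5 liver groups. High beauvericin (0.474) and low beauvericin (0.569) had the lowest values, in liver. Without intestine controls 5 and 6 the intestine r was 0.876, and with replicate 3 of low enniatin B also left out it was 0.871. The values of a library share its depth and its makeup of cells, whose part was not tested. In tissue samples, fewer cells of a type and less RNA per cell cannot be told apart.

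Samples that bear the same treatment and number in the 2 tissues were linked more loosely. For mmp9 the intestine and liver values had r = 0.441 (rho 0.440, permutation p = 0.047 and 0.033, adjusted p = 0.063) over 29 pairs, and r = 0.330 without the 2 farthest. For mmp13 they had r = 0.304 (rho 0.367, permutation p = 0.20 and 0.083, adjusted p = 0.20). Neither relation passed after adjustment.

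**Figure D4:**
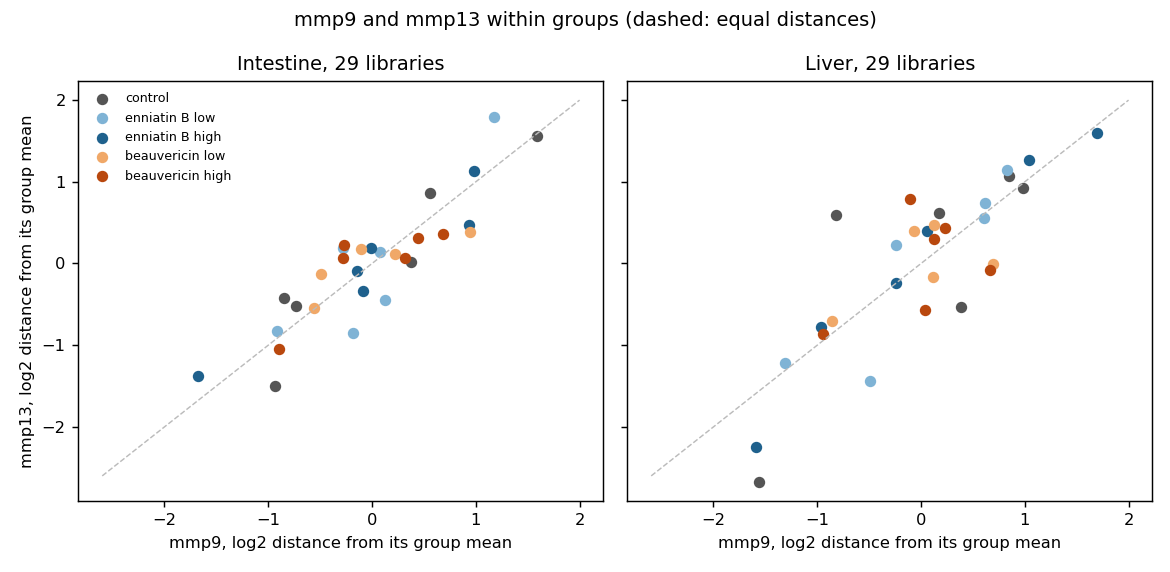
Each library's distance from its group mean in log2(value + 2), mmp9 on the horizontal and mmp13 on the vertical axis, in intestine (left) and liver (right); the dashed line marks equal distances. Points lie along the line in both tissues, with r of 0.883 and 0.831.

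Each protease was also the other's closest relative, or nearly so, among all genes. Likeness here is Pearson's r with group means removed, over genes with a mean of 50 or more, and is given as a description. In intestine, over 27 libraries (controls 5 and 6 left out) and 23635 genes, mmp13 had the highest r with mmp9 and mmp9 the highest with mmp13, at 0.876, where the median gene had 0.01. In liver, over 29 libraries and 21743 genes, mmp13 again ranked 1 for mmp9, and mmp9 ranked 3 for mmp13.

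Among genes with a name, those nearest to mmp9 in intestine after mmp13 were i14k (r = 0.772), zgc:152951 (0.731), the transcription factor gene cebpb (0.720) and the hyaluronidase gene hyal3 (0.711). For mmp13 they were the myeloid peroxidase gene mpx (0.819), hce1 (0.775), i14k (0.767) and the adenosine receptor gene adora2aa (0.746) after mmp9. In liver mmp9 was followed, after mmp13, by nattl (0.773), the granulocyte colony-stimulating factor receptor gene csf3r (0.744), si:ch1073-126c3.2 (0.707) and the complement gene c6.2 (0.698). For mmp13 the liver order was c6.2 (0.840), mmp9 (0.831), si:ch1073-126c3.2 (0.799), gemin6 (0.714) and nattl (0.689).

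The most opposed named genes in intestine were the integrin gene itga6a for both proteases (r = -0.709 with mmp9 and -0.763 with mmp13), then cracr2b (-0.643) and cetn3 (-0.639) for mmp9 and ark2n (-0.716) and ylat1 (-0.713) for mmp13. In liver they were pabpc4 (-0.669), the ribosomal protein gene rpl3 (-0.664) and pdcd7 (-0.661) for mmp9, and med22 (-0.630), naa40 (-0.626) and klf11a (-0.620) for mmp13.

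Markers of neutrophils and other granulocytes were higher in liver libraries with more mmp9 and mmp13, for each of the 6 assessed there. In intestine this held for some of them. The markers described are 7 genes, namely mpx, csf3r, the chemokine receptor cxcr2, the lysozyme gene lyz and the NADPH oxidase genes ncf1, cyba and cybb. In intestine all 7 had r above 0 with mmp9 (0.033 to 0.615, median 0.178) and with mmp13 (0.060 to 0.819, median 0.439). In liver 6 were abundant enough, and all 6 had r above 0 with mmp9 (0.365 to 0.744, median 0.590) and with mmp13 (0.277 to 0.656, median 0.608). Other lists held such values too. The hepatocyte marker hp had 0.507 with mmp9 and 0.640 with mmp13, though only 3 of 5 hepatocyte markers lay above 0. The thrombocyte marker itga2b had 0.464 and 0.312, fn1a 0.560 and 0.551 and junb 0.541 and 0.523. Over all liver genes the central 95% of r ended at 0.461 and 0.462, above cybb at 0.365 and 0.277.

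The intestinal relation of the granulocyte markers did not hold for their list as a whole without 1 library. Replicate 3 of low enniatin B had the highest mpx of all, 2489 normalized counts against 1258 or less in each other library, together with the highest mmp13. Without it and controls 5 and 6, over 26 libraries, the median r of the 7 markers was -0.042 with mmp9, with 3 above 0, and 0.114 with mmp13, with 5 above 0. The r of mpx was then 0.536 with mmp9 and 0.733 with mmp13, and that of csf3r was 0.497 and 0.493. The lowest marker had -0.267 and -0.137. Other lists had higher medians in these libraries. They were 0.264 and 0.312 for 6 other metalloproteinase genes, all above 0. For 8 extracellular matrix genes they were 0.233 and 0.291, with 7 and 8 above 0. The fibroblast marker lum had 0.431 and 0.454. Macrophage markers had medians of -0.25 and -0.177, with 0 above 0. Which cells made the proteases was not tested.

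Enterocyte markers ran the other way in intestine. Of 8 markers 7 had r below 0 with mmp9 (median of all 8 -0.308) and 6 with mmp13 (median -0.533), lowest for the actin-bundling gene vil1 at -0.618. Without the same 3 libraries the medians were -0.089 and -0.138. The 3 macrophage markers had r of -0.288 to 0.030 with mmp9 in intestine and of -0.082 to 0.601 in liver, where the complement gene c1qa had 0.601 with mmp9 and 0.619 with mmp13.

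**Figure D5:**
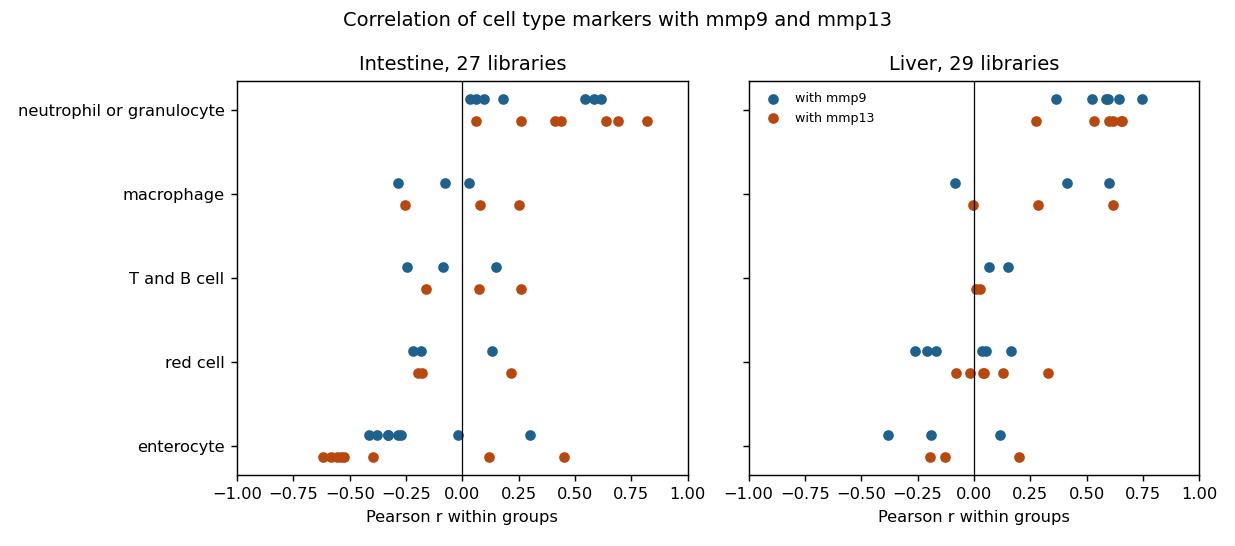
Pearson's r of single marker genes with mmp9 (blue) and mmp13 (orange), group means removed, in 27 intestine libraries (left) and 29 liver libraries (right); each point is 1 marker gene. Neutrophil or granulocyte markers lie between 0.033 and 0.819 in intestine and between 0.277 and 0.744 in liver. Hepatocyte and thrombocyte markers are not drawn.

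The summed level of the 7 neutrophil or granulocyte markers did not separate exposed from control libraries. In intestine the sum ran from 2916 to 6300.4 normalized counts in controls, from 3025 to 9728 after low enniatin B and from 3463 to 5070.5 after high enniatin B. It ran from 3136 to 4471 after low and from 3045 to 4965 after high beauvericin. In liver the sum ran from 788 to 2463 in controls and from 678 to 5588 over the exposed groups. The gene lyz weighed most in the sum, with 4423 of that 5588. Over 27 intestine libraries its mean was 1680, against 804 or less for each other marker. The sum therefore says less about the other markers. None of the markers passed limma, edgeR or DESeq2 against control in either tissue, and at an unadjusted p under 0.05 0 of 7 did after low enniatin B in intestine, 1 after high enniatin B, 2 after low beauvericin and 1 after high beauvericin. Among all genes 17.5%, 17.7%, 18.7% and 16.9% were at such a p in these 4 intestine comparisons with all controls in. A list with 1 in 6 is near the usual share of those fits. Without controls 5 and 6 the shares of all genes were 6.96%, 9.43%, 8.18% and 4.67%, but markers at such a p were not counted in those fits. There the median differences of the 7 markers were -0.056, 0.01, -0.07 and -0.093, and 0 passed limma. In liver 0 of 6 tested markers were at such a p, and among all genes 3.64%, 2.77%, 8.27% and 9.44% were.

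The same markers were lower in liver, as the proteases were. In controls all 7 passed limma there, with a median of -1.74 against -0.07 over all genes, among them mpx at -2.55 ± 0.61 and csf3r at -2.14 ± 0.24 (limma adjusted p = 0.000278 and 1.57e-11). The receptor gene cxcr2 had 0 to 14.5 normalized counts in liver libraries and 73.8 to 264 in intestine libraries. In the exposed groups 6, 6, 6 and 7 of the 7 passed, all lower in liver. Of all genes 68.5% to 71.7% passed in these comparisons. By edgeR 6 of 7 passed in controls, without ncf1, and 5 to 7 in the exposed groups. The part of these cells in the tissue difference of mmp9 and mmp13 was not tested.

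No other named family member was called against control. Of 16 other matrix metalloproteinase genes with a name in the reference, 7 were in the file, and none passed limma, edgeR or DESeq2 against control. In intestine 6 could be tested, with medians of 0.26, 0.20, 0.33 and 0.25 after low and high enniatin B and low and high beauvericin, where the median over all genes was 0.01 each time. Without controls 5 and 6 the family medians were 0.20, 0.16, 0.30 and 0.11. At an unadjusted p under 0.05 were 2, 1, 2 and 0 of the 6, beside the 16.9% to 18.7% of all genes given above. Without controls 5 and 6 only mmp25a after low enniatin B was (limma unadjusted p = 0.0469), beside 4.67% to 9.43% of all genes.

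With all controls in, the family members with the smallest p were mmp11b, whose product is known as stromelysin-3, and mmp14a, a membrane-bound metalloproteinase. After low beauvericin mmp11b differed by 0.69 ± 0.23 (limma adjusted p = 0.18) and mmp14a by 0.58 ± 0.22 (limma adjusted p = 0.20). Controls 5 and 6 held the 2 lowest control values of both genes, 310.5 and 257 for mmp11b and 852 and 683 for mmp14a. Without these libraries the low beauvericin differences were 0.44 ± 0.23 for mmp11b (limma adjusted p = 0.63) and 0.30 ± 0.21 for mmp14a (limma adjusted p = 0.73). In liver 5 family members were tested, with medians from -0.03 to 0.08 against control. Only mmp28 was at an unadjusted p under 0.05, after high enniatin B, at 0.59 ± 0.22 (limma adjusted p = 1.0). Among all genes 2.77% were at such a p there, and 2.77% to 9.44% over the liver comparisons with control.

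Between the tissues the family went several ways. In controls mmp14a (-0.85 ± 0.18, limma adjusted p = 3e-05) and mmp14b (-0.54 ± 0.18, limma adjusted p = 0.00725) were lower in liver, as mmp9 and mmp13 were. The transcript of mmp11b ran from 257 to 952 normalized counts in intestine libraries and from 0 to 17.8 in liver libraries. That of mmp25a, a membrane-anchored member, ran from 26.97 to 85.9 in intestine and from 0 to 6.61 in liver. Both were lower in liver in all 5 treatments by limma and edgeR.

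In normalized counts the gene of the other gelatinase, mmp2, was instead higher in liver in all 5 treatments. In controls it ran from 1611 to 3150 normalized counts in intestine and from 3789 to 4676 in liver, a difference of 0.78 ± 0.13 (limma adjusted p = 8.63e-07). Controls 5 and 6 held the highest of these intestine values, 3150 and 2772 against 2579 or less in the others. After exposure the difference was 0.50 to 1.02, and it passed by limma, edgeR and DESeq2 in each. The epilysin gene mmp28 had 67.5 to 270.3 in liver and 0 to 9.62 in 27 intestine libraries, but 585 and 612 in intestine controls 5 and 6. Its control difference between tissues was 2.42 ± 0.71 by limma (adjusted p = 0.00236) and -0.44 by edgeR (adjusted p = 0.58), so its direction in controls depended on the method. The effect of exposure on mmp28 was called different between the tissues by edgeR in all 4 exposures (edgeR adjusted p from 0.000703 to 0.00674) and by DESeq2, but not by limma (adjusted p from 0.21 to 0.45). These calls compare exposed intestine libraries at 9.62 or less with a control group in which only replicates 5 and 6 stood above 7.09.

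Of the inhibitors 2 of the 3 TIMP genes with a name were in the file. After exposure neither timp2 nor timp2a passed limma, edgeR or DESeq2, in either tissue. With all controls in, 0 of 2 were at an unadjusted p under 0.05, beside 16.9% to 18.7% of all genes in intestine and 2.77% to 9.44% in liver. Without controls 5 and 6 timp2a was at such a p after low beauvericin, where 8.18% of all genes were. Its difference there was 0.31 ± 0.12 (limma unadjusted p = 0.0159, adjusted p = 0.54). Both TIMP genes were lower in liver than in intestine in all 5 treatments. In controls the difference was -1.57 ± 0.23 for timp2 (limma adjusted p = 4.1e-08) and -0.78 ± 0.11 for timp2a (limma adjusted p = 7.22e-09). Controls 5 and 6 held the highest intestine control values of timp2, 491 and 486 normalized counts against 367 or less in the others. Across liver libraries timp2 had an r of 0.649 with mmp9 and 0.638 with mmp13, while timp2a had 0.123 and -0.229.

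A list of the plasminogen system, whose proteases activate metalloproteinases, also took in serpin and furin genes. Of this list 3 genes, plaub, serpine2 and furinb, were tested in intestine and 0 passed against control. The urokinase gene plaub had the smallest p, with 0.53 ± 0.20 after high enniatin B (limma adjusted p = 0.20), and without controls 5 and 6 the difference was 0.40 ± 0.21 (limma adjusted p = 0.54). With all controls in, 0, 1, 1 and 1 of the 3 genes were at an unadjusted p under 0.05, plaub each time. These comparisons share their controls, and 16.9% to 18.7% of all genes were at such a p in them. Without controls 5 and 6 furinb had the smallest p instead. Its limma unadjusted p was 0.0287, 0.0191, 0.0808 and 0.0446 in the 4 exposures, and the smallest adjusted p was 0.52. In those fits 4.67% to 9.43% of all genes were at an unadjusted p under 0.05. In liver 0 of 4 genes passed or reached an unadjusted p under 0.05, which 2.77% to 9.44% of all genes reached.

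Of the matrix genes listed as substrates, 9 collagen, fibronectin, elastin and proteoglycan genes, 0 passed limma against control in either tissue. In intestine 9, 8, 8 and 9 of the 9 lay below control in the 4 exposures, with medians from -0.34 to -0.20. Without controls 5 and 6 the medians were -0.03 to 0.06. The fibronectin gene fn1a was lowest after high enniatin B, at -0.72 ± 0.29 (limma adjusted p = 0.21), and DESeq2 called it there. Controls 5 and 6 held fn1a at 2309 and 2970.5 normalized counts, and without them the difference was -0.09 ± 0.16 (limma adjusted p = 0.87). At an unadjusted p under 0.05 were 1, 1, 3 and 0 of the 9 in intestine and 0 in liver. With all controls in, the intestine share was near or below that of all genes except after low beauvericin. Without controls 5 and 6 col4a1 was at such a p after low enniatin B (limma unadjusted p = 0.0467). After low beauvericin the smallest was then 0.0503, of col6a2.

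A list of 9 genes held transcription factors of families that act on mmp9 and mmp13 in mammals, and the NF-kB inhibitor gene nfkbiab. Of these 9 genes 0 passed limma against control in either tissue, and some were called by the count tests. The AP-1 gene junb was lower in intestine after low enniatin B, at -1.59 ± 0.40 (limma adjusted p = 0.20), and edgeR called it there together with the NF-kB inhibitor gene nfkbiab. DESeq2 called junb in all 4 intestine comparisons, each time lower than control. In these comparisons DESeq2 called 5.09% to 6.27% of all genes, and edgeR called 2.46% after low enniatin B. After low beauvericin, where mmp9 and mmp13 stood highest, cebpb lay 0.88 ± 0.25 above control (limma adjusted p = 0.17) and was called by DESeq2. Without controls 5 and 6 the limma difference was 0.56 ± 0.24 for cebpb (adjusted p = 0.57), and that of junb after low enniatin B was -0.85 ± 0.31 (adjusted p = 0.63). For high enniatin B and low and high beauvericin the junb differences were then -0.238, -0.305 and -0.266 (limma unadjusted p = 0.448, 0.35 and 0.396).

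At an unadjusted p under 0.05 were 3, 3, 6 and 1 of these 9 genes, nfkbiab included in the list, in the 4 intestine comparisons. Of all genes 16.9% to 18.7% were. Without controls 5 and 6, junb, nfkbiab and nfkb2 were at such a p after low enniatin B. After low beauvericin cebpd, cebpb and nfkb2 were, and after high enniatin B or high beauvericin no gene of the list was. Of all genes 4.67% to 9.43% then were. In liver 0, 0, 3 and 2 of the 9 listed genes were, where 2.77% to 9.44% of all genes were. In liver the largest was cebpd after low beauvericin, at 1.23 ± 0.31 (limma adjusted p = 0.15). Of the inflammatory and acute phase list only 4 symbols were in the file, tgfb1a, ptgs2b, il34 and hamp. Listed cytokine genes such as il1b, il6 and tnf were therefore not assessed. In each tissue 3 genes were tested, and 0 passed limma, edgeR or DESeq2 against control. At an unadjusted p under 0.05 were 0, 0, 1 and 1 of the 3 in intestine and 0, 0, 0 and 2 in liver. The shares of all genes there were 16.9% to 18.7% and 2.77% to 9.44%. The cytokine gene il34 after low beauvericin in intestine was at 0.42 ± 0.19 (limma adjusted p = 0.24) and without controls 5 and 6 at 0.16 ± 0.18, and the hepcidin gene hamp after high beauvericin in liver at -2.18 ± 0.84 (limma adjusted p = 0.44).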

How the data were processed

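RNA was extracted with QIAzol and an EZ1 kit, messenger RNA was taken on oligo(dT) beads, and paired reads were made on a NovaSeq instrument, per the labels' protocols. Reads went through Trim Galore 0.4.2, FastQC, HISAT2, featureCounts of Subread and DESeq2 1.18.1, per the submitters' processing notes; the sources used here do not give the HISAT2 version, the genome build or the strand setting. The deposited signal is a normalized count, and multiplying by a factor per library turned 99.9999% of values into whole reads, to within 0.1 read. On these reads edgeR called 371 to 631 genes in intestine and 0 to 21 in liver against control.

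Names came from the reference table of assembly Ssal_v3.1, used for names alone, which matched 24184 GeneIDs, of which 7529 have a symbol that is no LOC number. The members and gene lists were chosen with earlier results of these data known. List genes were found by symbol; a search by product name, though planned, was not made, so no LOC gene is on a list. One listed marker gene is not reported here and was left out of its list. List members are named where they pass limma, or else up to 4 per comparison with the smallest p. Single list members are also named for their r. The 5 most and 3 least alike named genes are given per member and tissue.

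The model was limma 3.58.1 in R 4.3.3 (trend and robust options) on log2(value + 2). A gene entered if at least 5 libraries of the tissue had a value of 10 or more. All 29 libraries of a tissue entered the fit, or all 58 between tissues. Fold changes are on that scale, which understates those of low genes. The scripts were tested on simulated data. edgeR 4.0.16, DESeq2 1.42.0, pseudocounts of 0.5 and 8, no filter, each replicate left out and a replicate block were alternatives; exact tests used scipy 1.17.1. Same-numbered samples of a tissue did not deviate together (r from -0.21 to 0.25). Between tissues r was 0.04 to 0.26, above 0.1 in every pair of high enniatin B, low beauvericin and high beauvericin. There the numbers pair the samples, going by the data. In the other groups the lowest r was 0.071 (low enniatin B) and 0.036 (controls), though 6 of 6 and 5 of 6 samples correlated best with their own number.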

Additional observations from a re-analysis of the deposited data

Results flagged for a closer look

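Of the 20 groups of mmp9 and mmp13 values, 3 held a library set apart from the others by more than Dixon's 95% limit on normalized counts. That limit flags about 1 in 20 groups when values are normally distributed and groups independent. Here the groups are not independent, as mmp9 and mmp13 were high and low in the same libraries. In intestine after low enniatin B, replicate 3 had mmp9 at 842 normalized counts, next to 406 in the nearest library, a gap of 0.675 of the whole range. The same library had mmp13 at 4210, next to 1385, a gap of 0.799 of the range. On the log2(value + 2) scale of the tests both gaps were a smaller part of the range. There replicate 3, the nearest library and the lowest had mmp9 at 9.721, 8.672 and 7.632 and mmp13 at 12.04, 10.438 and 9.398. That library also had the highest mpx of all intestine libraries, 2489, and 47461 of cubn. In intestine after high beauvericin, replicate 1 had mmp13 at 525, next to 1133, a gap of 0.699 of the range, and it also had the lowest mpx (242) and csf3r (474) of its group.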

How the results depend on the processing

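No exposure, dose or toxin result of mmp9 or mmp13 passed under any alternative run. Directions of small differences did turn, and the cause was not tested. In intestine after high beauvericin mmp9 was -0.002 with a pseudocount of 8, -0.238 by edgeR, -0.228 by DESeq2 and -0.446 without controls 5 and 6, where mmp13 was -0.114. With replicate 3 of low enniatin B also left out (chosen after seeing the data) these stayed at -0.446 and -0.114, and low enniatin B gave -0.216 for mmp9 and -0.309 for mmp13. In liver mmp13 after low enniatin B was -0.002 by edgeR. Without controls 5 and 6 the liver minus intestine effects were 0.152 (mmp9) and 0.054 (mmp13) for low enniatin B, 0.127 (mmp9) for high enniatin B and 0.389 (mmp9) for high beauvericin, the last 0.013 by edgeR. The mmp9 tissue difference in controls was -1.27 with 2 groups alone and did not pass (adjusted p = 0.0544). The mmp9 correlation between tissues was 0.330 without the 2 farthest pairs, 0.449 without controls 5 and 6 and 0.426 without all 3 libraries (permutation p = 0.11, 0.058 and 0.089). The control ratio difference without controls 5 and 6 was 1.44 (exact permutation p = 0.029, adjusted p = 0.074).

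Leaving out 1 library at a time, mmp9 against control ranged from -0.186 to 0.319 after high beauvericin in intestine, and in liver from -0.141 to 0.433 after low enniatin B and -0.369 to 0.139 after high beauvericin. In liver mmp13 ranged from -0.431 to 0.392 after low enniatin B, -0.145 to 0.838 after high enniatin B and -0.057 to 0.691 after low beauvericin. In liver enniatin B minus beauvericin at the low name ranged from -0.404 to 0.072 for mmp9, and high minus low enniatin B from -0.026 to 0.631 for mmp9 and -0.032 to 0.735 for mmp13. The mmp9 tissue difference in controls ranged from -1.47 to -0.956, and the mmp9 effect of high beauvericin between tissues from -0.376 to 0.138. The log2 ratio of mmp13 to mmp9 against control ranged in liver from -0.290 to 0.216, -0.316 to 0.190 and -0.106 to 0.40 after low and high enniatin B and low beauvericin, and in intestine from -0.060 to 0.197 and -0.048 to 0.202 after low enniatin B and low beauvericin.

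The replicate block, with number as a term within tissues or as a random block between them (correlation 0.143), changed no call in 50 results. With it mmp9 and mmp13 in intestine after low beauvericin were at 0.90 ± 0.47 and 0.95 ± 0.46 (limma adjusted p = 0.35 and 0.33), and the mmp9 tissue difference in controls had an adjusted p of 0.00732. Of 29 samples 28 correlated best with their own number in the other tissue, a hint from the data, not the design.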
